A study of Arabidopsis thaliana with 6 samples.

Results

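The cold and drought effector genes described here are 9 genes of Arabidopsis thaliana, taken by gene identifier from each deposited table. They are RD29A (AT5G52310), RD29B (AT5G52300), KIN1 (AT5G15960), KIN2 (AT5G15970), COR15A (AT2G42540), COR15B (AT2G42530), COR47 (AT1G20440), ERD10 (AT1G20450) and RAB18 (AT5G66400). All 9 had a row in each of the 3 tables, among 20575 genes with a value in all 3. Rosette leaf messenger RNA of the Columbia ecotype was sequenced in 6 libraries, from plants raised in a greenhouse under long days. The wild type (WT) and the mutant ibm1-3, which carries an allele of the histone demethylase gene IBM1, were each sampled once in low light at 40 days of age and in 2 libraries after 48 hours of high light given at 30 days. Age and light therefore cannot be told apart. The labels do not say how many plants went into a library or whether numbered libraries came from separate plants. In the main fits a p-value reflects only how far the genotype ratios of the 2 numbered high light pairs differ. Its variance is partly borrowed from other genes. Fits without the pair as a block use the spread of the libraries instead. Either spread may be technical.

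The 9 genes encode very hydrophilic proteins that accumulate in leaves during cold, drought, salt stress or treatment with the hormone abscisic acid. COR47, ERD10 and RAB18 are dehydrins, a class of late embryogenesis abundant (LEA) proteins that bind membranes and other proteins in drying or freezing cells, and COR15A and COR15B are LEA proteins of the chloroplast stroma that protect its membranes. Their genes are textbook targets of 2 routes: the CBF and DREB transcription factors bind the DRE/CRT element, and abscisic acid acts through bZIP factors that bind the ABRE element.

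The sequences just before the annotated gene starts are shown for the genes with the most copies of these elements, since the RD29 neighbours differ in them and also differed in the libraries. Each is the 250 bases before the start, in the direction of transcription, from the RefSeq TAIR10.1 genome. RD29A lies on the plus strand (window chr5:21240467-21240716), RD29B on the plus strand (chr5:21236771-21237020), COR15A on the minus strand (chr2:17712331-17712580) and RAB18 on the minus strand (chr5:26519448-26519697). Capitals mark the DRE/CRT core CCGAC and the ABRE core ACGTG on either strand, so that GTCGG and CACGT are the same cores read on the other strand, and CACGTG holds 2 overlapping ABRE matches.
RD29A: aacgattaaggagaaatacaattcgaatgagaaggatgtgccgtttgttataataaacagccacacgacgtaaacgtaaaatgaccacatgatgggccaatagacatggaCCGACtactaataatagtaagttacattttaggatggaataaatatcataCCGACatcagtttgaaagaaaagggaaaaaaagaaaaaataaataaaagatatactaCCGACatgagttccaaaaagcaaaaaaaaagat
RD29B: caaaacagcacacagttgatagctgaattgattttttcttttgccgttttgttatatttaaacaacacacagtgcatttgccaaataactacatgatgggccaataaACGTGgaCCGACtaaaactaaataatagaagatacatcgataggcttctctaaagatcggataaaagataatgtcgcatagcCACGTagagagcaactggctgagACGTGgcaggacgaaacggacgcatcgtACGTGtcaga
COR15A: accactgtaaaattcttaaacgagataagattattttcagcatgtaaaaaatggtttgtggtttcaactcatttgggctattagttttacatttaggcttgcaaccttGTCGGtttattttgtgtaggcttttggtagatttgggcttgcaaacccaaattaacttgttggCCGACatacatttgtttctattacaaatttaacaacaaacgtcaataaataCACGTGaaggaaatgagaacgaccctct
RAB18: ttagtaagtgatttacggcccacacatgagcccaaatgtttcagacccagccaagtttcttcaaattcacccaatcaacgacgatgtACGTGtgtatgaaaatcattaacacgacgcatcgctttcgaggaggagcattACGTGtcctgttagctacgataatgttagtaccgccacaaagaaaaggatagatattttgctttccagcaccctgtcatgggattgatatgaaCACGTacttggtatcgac

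RD29A held 3 DRE/CRT cores and 0 ABRE cores in these 250 bases, whereas RD29B held 1 and 4. COR15A held 2 and 2, RAB18 held 0 and 3, and KIN1 and KIN2 each held 0 and 1. COR15B, COR47 and ERD10 held 0 of either core, and the COR15B window lies almost wholly inside the annotated COR15A gene. Among 27443 annotated genes, 11.97% of such windows held a DRE/CRT core and 22.9% an ABRE core, against 3 and 5 of the 9 effector genes. A count of 3 or more DRE/CRT cores, as in RD29A, occurred in 0.197% of all windows, and 4 or more ABRE cores, as in RD29B, in 1.34%. Over 1000 bases, 8 of 9 held a DRE/CRT core and 6 of 9 an ABRE core, against 37.4% and 54.4% of all genes. The map of cores before each start shows that those of ERD10 and COR47 lie farther out than 250 bases. A match is a run of letters and does not show that a factor binds there. The windows end at the annotated gene start, and cores past it were not counted. A count of 0, as for the ABRE core in RD29A, therefore does not show that a promoter lacks the element.

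**Figure D1:**
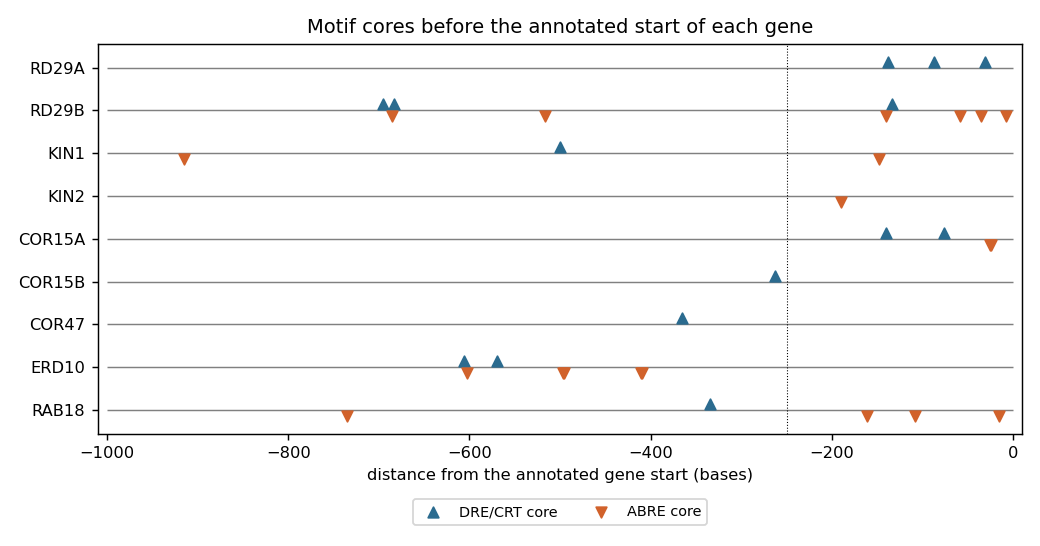
Positions of the DRE/CRT core (upward triangles) and the ABRE core (downward triangles) in the 1000 bases before the annotated start of each gene, with the distance from the start in bases on the horizontal axis and a dotted line at 250 bases. RD29A has 3 DRE/CRT cores and RD29B has 4 ABRE cores within 250 bases, and both ERD10 and COR47 have none of either there.

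High light pair 1 held 12121246 estimated fragments in WT and 12502408 in ibm1-3, the low light pair 15425082 and 13099267 reads, and the depth of pair 2 was not given. High light levels are in FPKM (fragments scaled by gene length and library depth). Low light levels are the deposited signal per kilobase, scaled by 1 constant to a size like that of FPKM. The tables were normalised separately and partly with other gene lengths, 2320 against 1219 bases for COR47 in pairs 1 and 2, so levels across tables are set side by side without a test. Summed FPKM was more concentrated in WT after high light, where the top 10 genes held 9.56% and 10.04% of it, against 4.64% and 4.41% in ibm1-3. IBM1 (AT3G07610) read 13.8 and 17.6 FPKM in WT and ibm1-3 of pair 1 and 8.34 and 7.46 FPKM in pair 2, a log2 difference of 0.09 ± 0.13 (SE, n = 2 libraries per genotype, limma adjusted p = 0.526). In low light it had 643 WT reads against 399 in ibm1-3. The transcript therefore does not check the high light labels, and directions given for ibm1-3 rest on how the libraries were labelled. Of the markers, the 4 seed storage genes had no value under their gene identifiers in any library. The 4 leaf photosynthesis genes (LHCB2.1, PSBO2, CAB3 and RCA) were read in every library.

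The 9 genes ranged from barely read to among the most abundant messengers of the leaf, as the plot of levels in each library shows. In WT after high light the order of mean levels was COR47 at 281 ± 16.2 FPKM (SD, n = 2, as for the means that follow), ERD10 at 183 ± 88.5, KIN2 at 126 ± 4.10, COR15A at 39.3 ± 10.4, RD29A at 30.1 ± 12.6, RAB18 at 11.1 ± 6.42, COR15B at 9.67 ± 1.53, KIN1 at 1.32 ± 0.283 and RD29B at 0.225 ± 0.120. In that order the 2 values of ERD10 overlapped those of KIN2, those of COR15A overlapped RD29A, and those of RAB18 overlapped COR15B. In ibm1-3 after high light the order was ERD10 at 2342 ± 1168 FPKM, COR47 at 1514 ± 142, KIN2 at 584 ± 20.4, RD29A at 420 ± 191, COR15A at 123 ± 28.1, COR15B at 45.8 ± 12.4, RAB18 at 21.9 ± 10.3, KIN1 at 21.4 ± 4.74 and RD29B at 0.190 ± 0.156. Here ERD10 overlapped COR47 and RAB18 overlapped KIN1. These means join 2 tables normalised separately, so each SD also holds the difference between the tables. Besides COR47, listed gene lengths in pairs 1 and 2 were 1584 and 653 bases for COR15B, 750 and 480 for KIN2, and 829 and 549 for KIN1. Both orders may thus depend on the lengths used. ERD10 was the rank 2 gene of the ibm1-3 library of pair 1 and rank 16 in pair 2, from ranks 341 and 979 in the WT libraries beside them. COR47 stood at ranks 15 and 20 in ibm1-3, from 261 and 354 in WT.

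**Figure D2:**
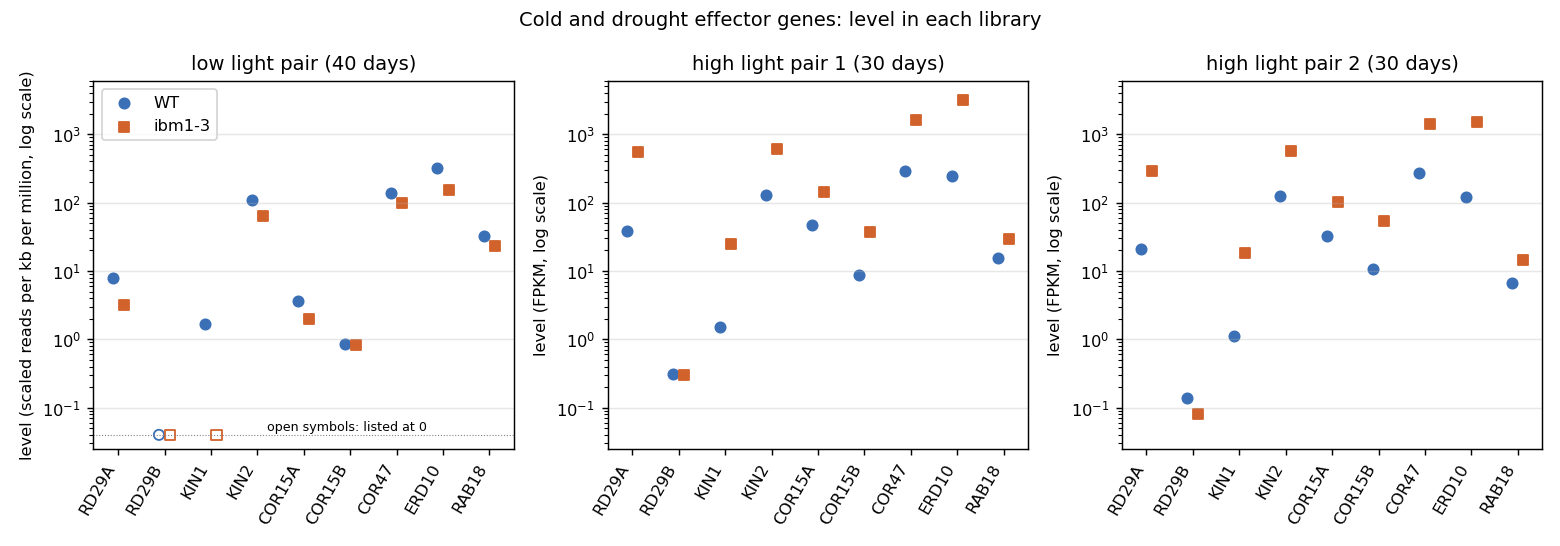
Level of each of the 9 genes in every library on a log scale, in scaled reads per kilobase for the low light pair and in FPKM for the high light pairs, with circles for WT, squares for ibm1-3 and open symbols for genes listed at 0. The ibm1-3 squares lie above the WT circles for 8 genes in both high light pairs, and RD29B stays under 0.5 FPKM throughout.

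After high light, 8 of the 9 genes were higher in the libraries labelled ibm1-3 than in WT, by 1.86-fold (RAB18) to 16.3-fold (KIN1) in FPKM of pair 1 and by 2.23-fold to 16.1-fold in pair 2. Only RD29B, which was almost unread, was not. Differences were tested with limma on log2(FPKM + 1) over 17399 genes, with the pair as a block, and a log2 fold change on that scale understates the change of scarce genes. All 8 genes tested passed an adjusted p of 0.05 upward, where 49.2% of all genes tested did so and 26% passed downward. Their median log2 fold change was 2.32, against 0.25 over all genes. With median-ratio scaling 35.4% of all genes passed upward and 38.7% downward, and the 8 effector genes still passed upward with a median of 1.99, against -0.03 over all genes. Since that many genes moved, the call itself sets these genes little apart, and the size of the changes describes them better: RD29A ranked 87 and ERD10 ranked 96 of 17399 by log2 fold change, whereas RAB18 ranked 3563.

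RD29A, whose promoter is a standard reporter of stress signalling, read 39.0 FPKM in WT and 556 in ibm1-3 of pair 1, and 21.3 and 285 in pair 2. Both ibm1-3 libraries were far above both WT libraries, by 14.2-fold and 13.4-fold. The log2 fold change was 3.74 ± 0.06 (SE, limma adjusted p = 1.85e-08), and the 1272 and 18670 estimated fragments of pair 1 leave little counting error.

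RD29B, its neighbour on the same strand with 1185 bases between them, was near the limit of reading in all 4 libraries. It had 0.31 FPKM in WT and 0.30 in ibm1-3 of pair 1, 8 estimated fragments in each, and 0.14 and 0.08 in pair 2. It did not reach the minimum of 1 FPKM in 2 libraries and was not tested there. Without that minimum its log2 difference was -0.04 ± 0.09 (limma adjusted p = 0.697). At this depth no difference was detectable, which does not show that the gene was silent.

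Among the dehydrins, ERD10 read 245 FPKM in WT and 3168 in ibm1-3 of pair 1, and 120 and 1517 in pair 2. The genotypes did not overlap, and the log2 fold change was 3.66 ± 0.06 (limma adjusted p = 1.85e-08). COR47, next to ERD10 on chromosome 1, read 292 and 1614 FPKM in pair 1 and 269 and 1413 in pair 2, a log2 fold change of 2.43 ± 0.06 (adjusted p = 8.44e-08). RAB18, the dehydrin named for its response to abscisic acid, read 15.6 and 29.2 FPKM in pair 1 and 6.56 and 14.6 in pair 2. Its lower ibm1-3 library lay below its higher WT library, so the genotypes overlapped unless compared within a pair. Its log2 fold change was 0.95 ± 0.09 (adjusted p = 4.88e-05). That call was lost without the pair as a block (adjusted p = 0.266) and on leaving out any 1 library, in fits that also have no block (adjusted p 0.103 to 0.684), with a fold change that ran from 0.38 to 1.52.

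For the chloroplast LEA proteins, COR15A read 46.7 FPKM in WT and 143 in ibm1-3 of pair 1, and 31.96 and 104 in pair 2, a log2 fold change of 1.63 ± 0.06 (limma adjusted p = 3.71e-07). COR15B read 8.59 and 37.1 FPKM in pair 1 and 10.8 and 54.6 in pair 2, a log2 fold change of 2.12 ± 0.09 (adjusted p = 6.42e-07). Neither gene's genotypes overlapped. The COR15A call was lost without WT replicate 1, WT replicate 2 or ibm1-3 replicate 1 (adjusted p = 0.0587, 0.110 and 0.0578), that of COR15B without WT replicate 1 (0.0549), that of COR47 without either WT replicate (0.0522 each) and that of ERD10 without WT replicate 2 (0.0503). All kept their direction.

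KIN1 and KIN2 encode small proteins first described as cold-inducible and lie side by side on the plus strand of chromosome 5. Their coding sequences, shown because reads of one could be assigned to the other, are from the RefSeq TAIR10.1 genome, and capitals mark the 10 positions at which they differ.
KIN1: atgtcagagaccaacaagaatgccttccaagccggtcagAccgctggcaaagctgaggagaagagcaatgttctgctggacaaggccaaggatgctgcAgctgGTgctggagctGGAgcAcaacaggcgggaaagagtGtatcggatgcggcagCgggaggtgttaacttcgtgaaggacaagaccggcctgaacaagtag
KIN2: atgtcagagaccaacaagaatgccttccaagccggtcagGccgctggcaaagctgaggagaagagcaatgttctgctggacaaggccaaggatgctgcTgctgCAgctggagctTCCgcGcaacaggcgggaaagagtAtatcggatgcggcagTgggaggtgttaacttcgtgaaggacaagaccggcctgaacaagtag

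The 201 coding bases are 95.02% identical, but over the whole exons only 10 runs of 50 bases are shared, 1.28% of those of KIN1 and 1.43% of those of KIN2, and no other effector genes share any. Both values are therefore uncertain to the extent that reads fell in the shared stretch. The risk is larger for KIN1, which had 14.96 estimated fragments in WT of pair 1, against 1140 for KIN2. A few KIN2 reads assigned to KIN1 would alter the WT level and the fold change of KIN1, which was not tested. KIN2 read 129 FPKM in WT and 598 in ibm1-3 of pair 1, and 123 and 570 in pair 2, a log2 fold change of 2.21 ± 0.06 (limma adjusted p = 8.3e-08). Its pairs agreed most closely of the 8, with 4.65-fold and 4.63-fold. KIN1 read 1.52 and 24.7 FPKM in pair 1 and 1.12 and 18.0 in pair 2, a log2 fold change of 3.26 ± 0.11 (adjusted p = 3.06e-07). Its genotypes were wide apart, on 14.96 estimated fragments in WT against 250 in ibm1-3 of pair 1.

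In low light the direction was the other way. With 1 library per genotype the difference has no replicate check, so ratios are given with exact 95% binomial intervals that cover counting error only. Of the 9 genes, 6 had the 50 reads set as a minimum, and 6 of 6 were lower in ibm1-3, where 49% of 16509 genes were. Their median log2 ratio was -0.82, against 0.01 over all genes. RD29A and ERD10 were at least 2-fold lower, where 9.73% of all genes were.

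RD29A had 302 WT and 121 ibm1-3 reads, which gave a log2 ratio of -1.34 (-1.66 to -1.04), and ERD10 had 7398 and 3489 reads, a ratio of -1.11 (-1.17 to -1.05). The authors' deposited table, from 1 library against 1, gives a q-value of 1.69e-13 for ERD10 and of 0.222 to 0.968 for RD29A, KIN2, COR47, RAB18 and COR15A. With the main scaling, the counting intervals of RD29A and ERD10 lay below 0, as did those of the other 4 genes with enough reads. KIN2 had 1165 and 684 reads (log2 ratio -0.79, interval -0.93 to -0.66), and COR15A had 36 and 20 (log2 ratio -0.84, interval -1.74 to -0.05). COR47 had 4526 and 3292 reads (-0.48, -0.55 to -0.42), and RAB18 had 464 and 329 (-0.52, -0.73 to -0.31). Of the 6, COR15A thus rested on the fewest reads. Scaling by library totals instead moved every ratio up. That scaling left RD29A as the one gene at least 2-fold lower and put ERD10 at -0.85, COR47 at -0.22 and RAB18 at -0.26. COR15A went to -0.59, a shift larger than the distance of its upper bound from 0. Whether its interval lies below 0 thus depends on the scaling.

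The other 3 genes were too scarce in low light. COR15B had 19 reads in each genotype. KIN1 had 20 reads in WT and was listed at 0 in ibm1-3, which is taken here as fewer than 15 reads, and RD29B was listed at 0 in both. In bulk leaf RNA, fewer cells making a transcript and less of it per cell cannot be told apart, here or in high light.

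**Figure D3:**
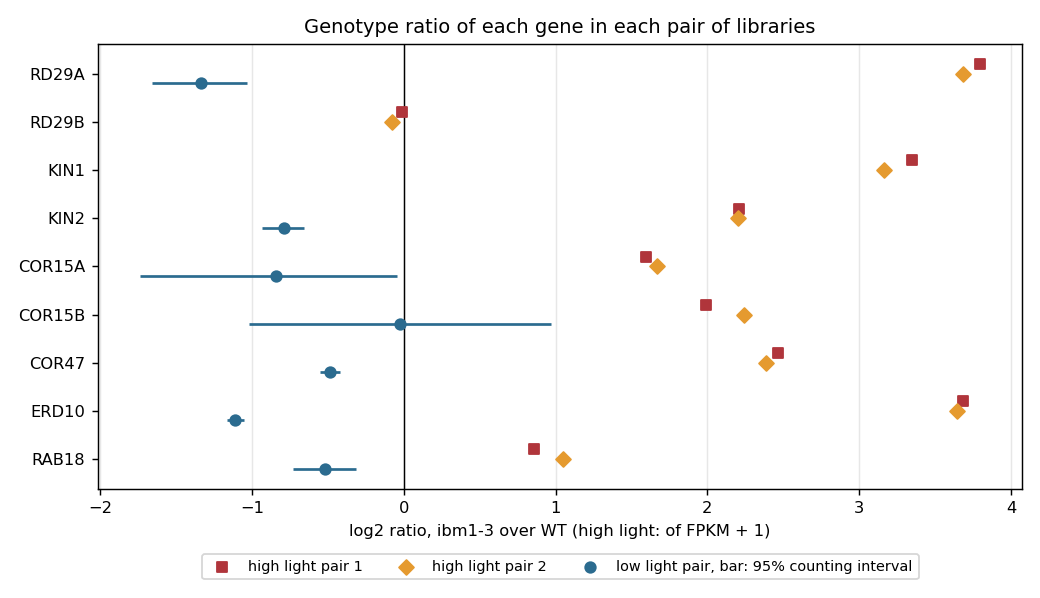
Log2 ratio of ibm1-3 over WT for each gene in high light pair 1 (squares), high light pair 2 (diamonds) and the low light pair (circles, with 95% counting intervals), where high light ratios are of FPKM + 1, which draws the scarce RD29B toward 0. For RD29A, KIN2, COR15A, COR47, ERD10 and RAB18 the high light ratios lie above 0 and the low light ratio below it, while COR15B lies near 0 in low light.

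The difference between the genotype effects of the 2 lights was tested with limma over 15851 genes in all 6 libraries, on the assumption that the lone low light pair varies like the high light pairs. All 6 effector genes tested passed upward, where 38.5% of genes did. The log2 difference was 4.85 ± 0.12 (SE) for RD29A, 4.76 ± 0.11 for ERD10, 2.98 ± 0.10 for KIN2, 2.90 ± 0.11 for COR47, 2.26 ± 0.13 for COR15A and 1.45 ± 0.15 for RAB18, with limma adjusted p from 3.04e-08 to 6.75e-05. Their median was 2.94, against 0.19 over all genes. All 6 were both called higher in ibm1-3 in high light and below a ratio of 1 in low light, as 24.1% of genes were. Without the pair as a block 3 of the 6 kept the call, and COR15A, ERD10 and RAB18 did not (adjusted p = 0.0819, 0.0630 and 0.427).

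Set side by side across the tables, WT itself was higher after high light for RD29A (7.997 on the low light scale, 39.0 and 21.3 FPKM in high light) and COR15A (3.62, then 46.7 and 31.96). COR47 (138, then 292 and 269), KIN2 (110, then 129 and 123) and COR15B (0.846 on 19 reads, then 8.59 and 10.8) also read higher. ERD10 went the other way in WT (324, then 245 and 120), as did RAB18 (32.9, then 15.6 and 6.56) and the scarce KIN1 (1.70, then 1.52 and 1.12). In ibm1-3, ERD10 read 151 and then 3168 and 1517, RD29A read 3.16 and then 556 and 285, and RAB18 read 23.1 and then 29.2 and 14.6. These differences carry the separate normalisation, the ages and the light together, and were not tested.

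The genes form 4 neighbouring pairs, in which the members of a pair need not move alike, and their ratios within a library do not depend on how libraries are scaled. RD29A was 126 times RD29B in WT and 1852 times in ibm1-3 of pair 1, and 152 and 3562 times in pair 2, the divisors being a few fragments. ERD10 was below COR47 in both WT high light libraries, at 0.840 and 0.447 of its level, and above it in both ibm1-3 ones, at 1.96 and 1.07. In low light, where levels use the gene lengths of pair 1, ERD10 exceeded COR47 in both genotypes, by 2.35 and 1.53. Those lengths were 1612 bases for ERD10 and 2320 for COR47, against 1514 and 1219 in pair 2. ERD10 and COR47 had 7398 and 4526 low light reads in WT and 3489 and 3292 in ibm1-3. Their low light order in ibm1-3 thus depends on the lengths used. KIN2 was 84.7 and 110 times KIN1 in the WT high light libraries and 24.2 and 31.6 times in ibm1-3. COR15A, which ends 7 bases from the start of COR15B, was 5.44 and 2.97 times COR15B in WT and 3.86 and 1.90 times in ibm1-3. The plot of neighbour ratios shows the same turn between genotypes in both high light pairs, at other absolute levels where the tables list other gene lengths.

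**Figure D4:**
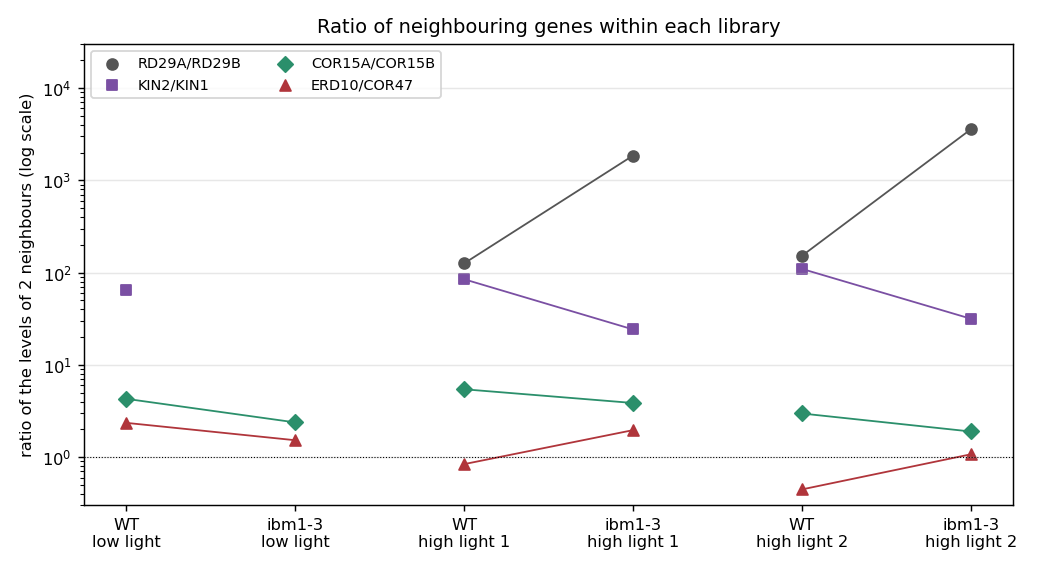
Ratio of the levels of neighbouring genes within each library, on a log scale, with lines joining WT and ibm1-3 of a pair of libraries and a dotted line at equal levels. ERD10/COR47 (upward triangles) goes from 0.840 to 1.96 in pair 1 and from 0.447 to 1.07 in pair 2, and KIN2/KIN1 (squares) falls in both, while ratios with a gene listed at 0 are not drawn.

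A list of 14 other dehydrin, LEA and COR413 genes, the last of which encode membrane proteins, held 8 that could be tested after high light. All 8 rose in ibm1-3 (7 with median-ratio scaling), where 49.2% of all genes did, with a median log2 fold change of 1.54. LTI30, a cold-responsive dehydrin, read 10.8 and 139 FPKM in WT and ibm1-3 of pair 1 and 5.82 and 83.6 in pair 2 (log2 fold change 3.60 ± 0.07, limma adjusted p = 2.89e-08). COR413IM1, a protein of the chloroplast inner envelope, rose by 2.92 on the log2 scale, LEA14 by 2.18 and the acidic dehydrin ERD14 by 1.80. COR413IM1 differed from the effector genes in low light, where its log2 ratio was 0.32 (0.24 to 0.41), while LEA14 was at -1.86 and ERD14 at -0.46.

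Of 25 other cold and drought responsive genes, 24 were tested, 13 rose, 10 fell and 1 did not pass, with a median of 0.64, and 12 rose and 11 fell with median-ratio scaling. The share that rose is near the 49.2% of all genes, and 26% of all genes fell. ERD7 rose by 3.78 and the dehydration gene RD22 by 2.53 on the log2 scale. P5CS1, which makes proline, fell from 79.4 to 5.54 FPKM in pair 1 and from 69.0 to 4.61 in pair 2 (log2 fold change -3.63), and the NAC factor RD26 fell as well (-2.25).

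Among the 19 CBF and DREB factors and their regulators, which act upstream of the DRE/CRT element, 16 rose, 0 fell and 3 did not pass, with a median of 0.76, beside 49.2% of all genes higher and 26% lower. With median-ratio scaling 12 rose and 0 fell, beside 35.4% and 38.7% of all genes. MYB15, described as a repressor of CBF genes, rose by 4.35, the DREB-type factor DDF1 by 4.02, DREB2A by 1.98 and the zinc finger ZAT10 by 1.69. CBF1, CBF2, CBF3 and CBF4, named after their values were seen, rose by 2.69, 1.92, 1.21 and 3.03, from levels of at most 3.64 FPKM in WT. In low light CBF1, CBF3 and CBF4 were listed at 0 in both genotypes, and DDF1 went from 23.4 on the low light scale in WT to a listed 0 in ibm1-3.

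Of all genes tested 49.2% rose and 26% fell, and the shares of the abscisic acid lists that rose were near the first value. Of 25 signalling genes, 23 were tested, 11 rose, 8 fell and 4 did not pass (median 0.16), and with median-ratio scaling 8 rose and 11 fell. The bZIP factor ABI5 rose by 2.56, the receptors PYL6 and PYL5 by 2.26 and 1.80, and the phosphatase HAB1 fell (-1.49). Of 12 synthesis and breakdown genes, 11 were tested, 5 rose, 4 fell and 2 did not pass (median -0.04), and with median-ratio scaling 5 rose and 5 fell. The hydroxylase genes CYP707A3 and CYP707A1, which break the hormone down, rose by 5.78 and 3.61. In the same family CYP707A2 fell (-0.80) and CYP707A4 did not pass (-0.04), both named after their values were seen. NCED3, which makes the precursor of the hormone, rose by 2.52, and the epoxidase ABA1 fell (-2.94).

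**Figure D5:**
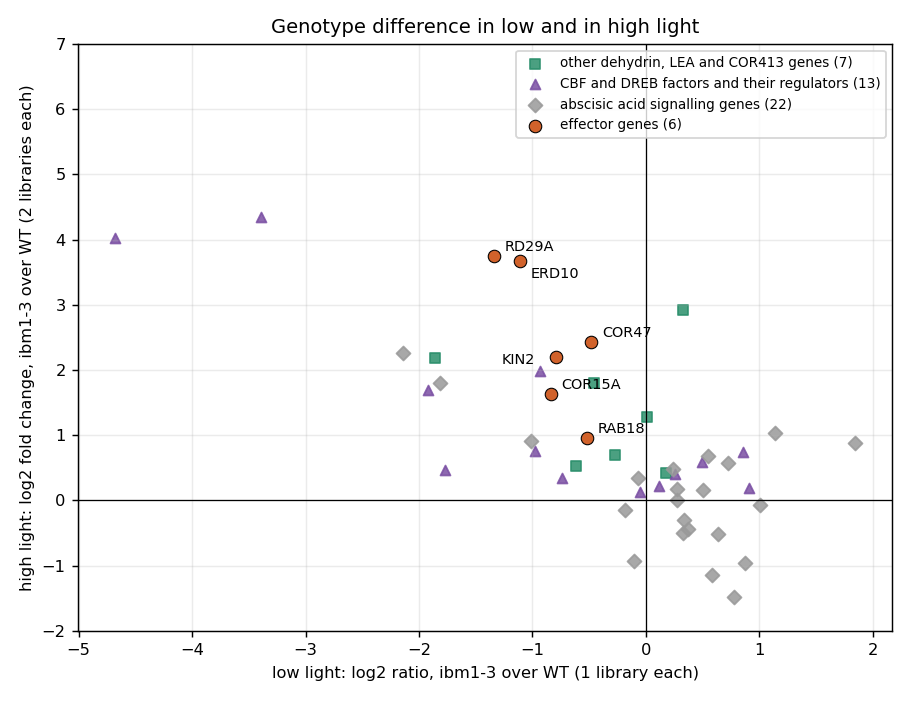
Log2 ratio of ibm1-3 over WT in low light (horizontal axis, 1 library per genotype) against the log2 fold change after high light (vertical axis, 2 libraries per genotype) for 6 effector genes and 3 related lists, with DDF1, listed at 0 in ibm1-3 low light, placed at its bound. The 6 effector genes (circles) all lie in the upper left, above 0 in high light and below 0 in low light, while abscisic acid signalling genes (grey diamonds) spread over both sides of 0.

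Other genes also differed between the genotypes after high light, in either direction, and their part in the result was not tested. The morning clock genes CCA1 and LHY were lower in ibm1-3 (log2 fold change -4.71 and -4.12) and the evening genes TOC1 and GI higher (1.71 and 2.19), and the labels give no hour of harvest. The leaf photosynthesis markers fell, 4 of 4, from a summed 9066 and 10523 FPKM in WT to 1302 and 1486 in ibm1-3, led by LHCB2.1 (-5.02). Beside these marker counts, 49.2% of all genes tested were higher and 26% lower, or 35.4% and 38.7% with median-ratio scaling. Of the guard cell markers, 2 of 5 rose and 2 fell, or 1 and 2 with that scaling. GC1 rose by 1.37 and KAT1 by 0.40, while MYB60 and FAMA fell (-0.56 and -0.31). The list summed to 49.6 and 47.7 FPKM in WT against 54.3 and 68.1 in ibm1-3. Within these sums GC1 alone read 6.82 and 9.76 in WT against 16.4 and 31.5 in ibm1-3. The phloem and vessel list had 3 of 4 genes higher, or 2 with that scaling, XCP2 by 1.29. Its sums were 62.1 and 105 FPKM in WT and 88.3 and 163 in ibm1-3. Of 3 root markers, COBL9 had no value under its gene identifier. The other 2 were tested and rose, PHT1.4 by 3.77, with sums of 1.17 and 2.94 FPKM against 27.7 and 42.2.

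By the largest difference between log2 genotype ratios over the 3 pairs of libraries, the genes most like RD29A among 15845 compared were, outside the effector genes, ORA47 (0.219), AT5G52050 (0.235), EXL5 (0.282), NUDT21 (0.289) and ARR7 (0.326). ERD10, at 0.228, was second of all genes, so RD29A and ERD10, on different chromosomes, followed each other closely in 3 pairs. COR47 stood at place 185, KIN2 at 294, COR15A at 919 and RAB18 at 3201.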

How the data were processed

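Groups come from sample titles and characteristics. The submitters' processing notes list Bowtie2 and TAIR10. Not given in the sources used here are the counting program, strand setting and versions, nor which library had which of the 2 preparation protocols. Without strand, reads of antisense transcripts cannot be told apart. The authors deposited estimated counts and FPKM for high light pair 1, per the file headers. For pair 2 the authors deposited an expression column with no unit, whose values lie on the FPKM scale. A value of 0.01 was set to 0. Both tables carry log2 ratios that, per the file headers, the authors took from these columns. The authors deposited the low light table as a signal, with the authors' log2 ratios and q-values. That this signal is read counts times 1 factor per library was inferred here from the values. With the inferred factor, 100% of nonzero values lay within 0.01 steps of a whole number. The smallest such number was 15, so a listed 0 was taken as fewer than 15 reads. All low light read numbers and their intervals rest on this inference. For pair 2, 1003 identifiers with a transcript suffix were left out. Pair 1 columns lack a number and got 1 from the table's title. Descriptions of some high light samples go against their titles, which were used.

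The plan named edgeR if both high light tables held counts. Pair 2 holds none, so limma 3.58.1 (trend, R 4.3.3) was run on log2(FPKM + 1) for genes of at least 1 FPKM in 2 libraries, with the pair as block, Benjamini-Hochberg adjustment over all genes and a threshold of 0.05. The fit has 1 residual and 6.17 prior degrees of freedom. Each number has its own table per the labels, and deviations from the group means of same-numbered samples correlated at 0.89 across genes. For low light, TMM factors (edgeR 4.0.16) and a prior count of 1 were applied, with 14 reads standing in for a listed 0. All 22258 gene positions of pair 1 lie inside the RefSeq gene of the same identifier, so promoter windows were read from RefSeq TAIR10.1. The effector genes and the 11 other lists were chosen with earlier results of these data known. From each other list, up to 4 genes with the smallest p after high light are named, plus IBM1 and the 5 genes nearest to RD29A. Alternatives were another pseudocount, filter, scaling or read minimum, no replicate block and each library left out.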

Additional observations from a re-analysis of the deposited data

Results flagged for a closer look

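For 6 genes the genotype difference after high light differed from that in low light by the test of that difference itself (limma), with 1 low light library per genotype. All 6 passed upward, as did 38.5% of the 15851 genes tested. Without the pair as a block COR15A, ERD10 and RAB18 did not keep the call. The log2 difference was 4.85 for RD29A, 4.76 for ERD10, 2.98 for KIN2, 2.9 for COR47, 2.26 for COR15A and 1.45 for RAB18. Each was higher in ibm1-3 in both high light pairs and lower in the low light pair. Light and age cannot be told apart here.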

How the results depend on the processing

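Genes called after high light numbered 13087 of 17399 tested, and 13105 and 12886 with a pseudocount of 0.1 and median-ratio scaling. With no minimum FPKM they numbered 13756 of 21437. With these 3 settings 8 effector genes stayed called. Without the replicate block 4622 of 17399 genes and 7 effector genes were called, and RAB18 was lost. The fits with 1 library left out tested the same 17399 genes. Leaving out 1 library, also with no block, gave 1242 to 3395 genes and 4 to 7 effector genes (4 without WT replicate 1, 4 without WT replicate 2, 6 without ibm1-3 replicate 1 and 7 without ibm1-3 replicate 2). The genotype difference between lights was called for 9773 genes, and without the replicate block for 1239 genes and 3 of 6 effector genes. In low light, scaling by library totals left 1 effector gene at least 2-fold lower in place of 2, with ERD10 at -0.85, KIN2 at -0.53, COR47 at -0.22 and RAB18 at -0.26. No effector gene changed direction under the settings run, while median-ratio scaling turned the median of all genes after high light from 0.25 to -0.03 and the abscisic acid signalling list from 11 higher and 8 lower to 8 and 11. The cause of each change was not tested. Depth limits RD29B, KIN1 and COR15B in low light and RD29B in high light.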
